A study of Mus musculus with 6 samples.

Results

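Protocadherins are cell adhesion proteins of the cadherin superfamily, and their messenger RNA (mRNA) levels were compared between mouse embryonic stem cells labelled Max-KO (genotype Max-/-) and wild-type (WT) cells. The set held every protein-coding gene whose symbol begins with Pcdh in the GENCODE M21 annotation of the GRCm38 genome, 69 of the 56689 identifiers listed in each library. These were 57 clustered genes, namely 14 alpha, 22 beta and 21 gamma members that lie side by side on chromosome 18, and 12 single genes scattered over the genome. The set was proposed with the Max-KO and WT levels already known, so the levels of its members are a description and carry no test.

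All 6 libraries came from embryonic stem cells, the pluripotent cells of the early embryo, of strain C57BL/6, with 3 libraries labelled Max-KO and 3 labelled WT. The labels do not say how Max was inactivated or whether the cells came from 1 clone. The labels do not state that the libraries of a group were separate cultures, so every p-value refers to the spread between these libraries alone, which may be technical. MAX is the partner with which MYC proteins bind DNA, and it is also a subunit of a Polycomb repressor complex, PRC1.6.

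The clustered protocadherins are known from neurons, where each cell switches on a few of them and their combination lets the branches of 1 cell recognise each other. In the alpha and gamma arrays each gene has its own first exon, which encodes the extracellular cadherin repeats and the membrane span, and splices to constant exons that all genes of the array share. Each beta gene is a complete transcript on a single exon. Promoter choice in the cluster is known to depend on CTCF, cohesin and DNA methylation. Single protocadherins have their own promoters and differ more from each other: PCDH15 is a part of the tip link of inner ear hair cells, and PCDH19 is linked in humans to an epilepsy that affects mainly females.

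Levels are FPKM, fragment counts scaled to transcript length and library size, as deposited. Estimated depth was 20.2 to 27.3 M fragments per library, so that 1 FPKM in a transcript of 5 kb corresponded to about 96.0 to 130 fragments, and 0.1 FPKM to about 9.6 to 13 fragments. A log2 difference is the mean of log2(FPKM + 1) in Max-KO less that in WT, and it is smaller than the log2 ratio of FPKM where levels are low. The limma fit covered genes that averaged 1 FPKM or more in either group, and calls were made where the p-value, adjusted over all genes by Benjamini and Hochberg's method, was under 0.05. Of 14661 genes tested, 6300 were called higher and 3403 lower in Max-KO (66.2% in either direction), with a median log2 difference of 0.21. The split was 7999 and 2298 after rescaling to TPM (median 0.43), 4890 and 4631 under median-ratio scaling (median 0.04), and 4225 and 4831 under quantile normalization (median -0.02). Max itself had 35.8, 39.6 and 43.4 FPKM in Max-KO libraries 1 to 3, against 41.6, 50.2 and 42.3 FPKM in WT libraries 1 to 3. These groups overlapped, the log2 difference of -0.17 ± 0.10 (SE) was not called (limma adjusted p = 0.168). Under median-ratio scaling it was -0.36 and was called lower (adjusted p = 0.0135), and after rescaling to TPM it was 0.06 (adjusted p = 0.631). A level summed over the gene does not show a missing exon and so does not check the genotype, and libraries are named here by their labels.

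The embryonic stem cell markers were present in both groups: Pou5f1, for example, was at 962 to 1030 FPKM in Max-KO and 864 to 943 FPKM in WT. Of the 8 markers 6 rose, 2 were not called and none fell (limma). The markers of other cell types moved as well. All 5 tested of 10 neuron markers fell, and the whole list summed to 202 to 212 FPKM in Max-KO, against 398 to 433 FPKM in WT. Of the 3 tested of 8 neural progenitor markers 2 fell and 1 rose, with sums of 26.8 to 29.3 FPKM in Max-KO and 24.9 to 27.2 FPKM in WT. Of the 8 germ cell markers 7 rose, and their sums were 992 to 1046 FPKM in Max-KO, against 28.4 to 34.6 FPKM in WT. All 5 tested of 8 primitive endoderm markers were called higher (sums 47.3 to 58.7 FPKM in Max-KO and 31.4 to 32.9 FPKM in WT), but Gata4, Sox17 and Dab2 were not called under quantile normalization. Sox17 also lost its call without WT library 1 or 2 or Max-KO library 1 or 2 (adjusted p = 0.0577 to 0.0751). Of the 7 tested of 8 trophoblast markers 5 were called higher (sums 107 to 121 FPKM in Max-KO and 88.8 to 97.7 FPKM in WT). Gata4, Sox17, Pdgfra, Elf5, Gata3, Col6a3, Taf7l and Tex101 were under 1 FPKM in WT on average, and Kdr in Max-KO, so the filter set their direction. Fibroblast markers, which could come from feeder cells, summed to 10.8 to 12.2 FPKM in Max-KO and 8.69 to 9.31 FPKM in WT, with 2 of 3 tested called higher, Col6a3 and Col1a1, neither of them under quantile normalization (adjusted p = 0.268 and 0.632). Of 8 mesoderm markers 2 were tested, of which Eomes rose (not under quantile normalization) and Kdr fell, and the list summed to 5.85 to 7.68 FPKM in Max-KO and 4.87 to 4.94 FPKM in WT. No marker of these lists was at 0 in all 6 libraries, but the neuron marker Dcx was at or under 0.11 FPKM and the neural progenitor markers Fabp7 and Zic1 at or under 0.28 and 0.13 FPKM. The part of these cell types in the protocadherin levels was not tested.

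Most protocadherins were close to silent in both groups. Of the 69 members, 53 never reached 1 FPKM in any library and 7 were listed at 0 in all 6, namely 3 alpha and 4 beta genes. Only 14 members passed the filter on low levels, 9 gamma and 5 single genes, and no alpha or beta gene did. Of these 14, 13 were called higher in Max-KO and Pcdh11x was called lower, where 43.0% of all tested genes were called higher and 23.2% lower. Under quantile normalization 7 of the 14 were called higher. Since the contrast itself was known when the set was proposed, nothing is read from these counts. Moreover, Pcdhga1, Pcdhga10, Pcdhgb7, Pcdhgc5 and Pcdh19 passed the filter only through their Max-KO level, which fixed their direction. The member nearest above the filter was Pcdhga10, with a mean of 1.03 FPKM in Max-KO and 0.45 FPKM in WT, and the nearest below it was Pcdhgb5, with 0.95 FPKM in Max-KO and 0.28 FPKM in WT. Over all 69 members, 25 had Max-KO libraries that all lay above the WT libraries, 2 had them all below, and 42 overlapped. The shares over all protein-coding genes seen in at least 1 library were 39.5% above and 20.8% below, and over the genes tested 46.3% above and 25.7% below.

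**Figure D1:**
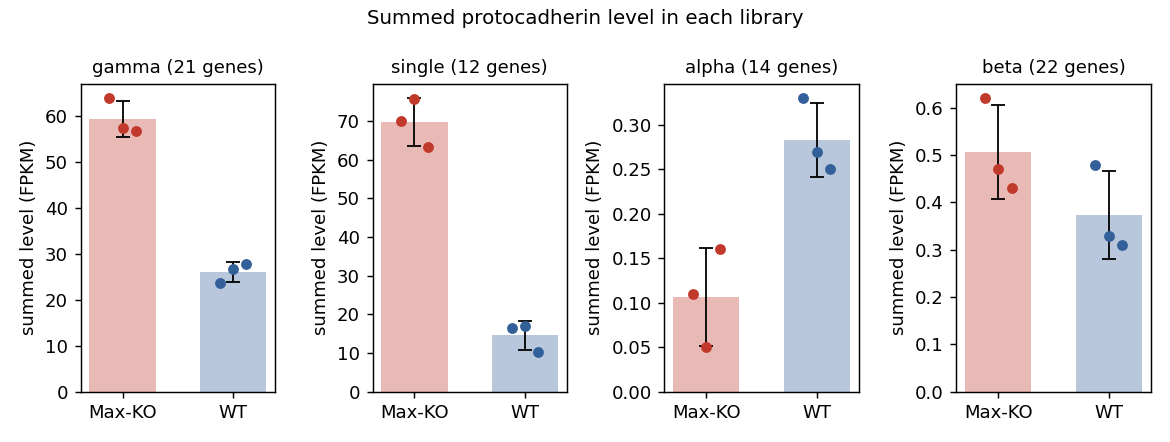
Summed level of the gamma, single, alpha and beta protocadherins in FPKM (y axis, with a separate scale for each panel), with 1 point per library, bars at the mean of 3 libraries and error bars of 1 SD. The gamma sums were 56.7 to 63.8 FPKM and the single sums 63.3 to 75.7 FPKM in Max-KO, all above the WT libraries, whereas the alpha and beta sums stayed under 1 FPKM in both groups.

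Summed over their members, the gamma genes reached 63.8, 57.2 and 56.7 FPKM in Max-KO libraries 1 to 3, against 23.6, 26.7 and 27.7 FPKM in WT libraries 1 to 3. The single genes summed to 70.1, 75.7 and 63.3 FPKM in Max-KO, against 16.4, 17.1 and 10.2 FPKM in WT. In both families every Max-KO library stood above every WT library. The group means gave 59.2 ± 3.94 FPKM in Max-KO and 26.0 ± 2.17 FPKM in WT for gamma (SD, n = 3 each), a ratio of 2.28. For the single genes they gave 69.7 ± 6.22 FPKM in Max-KO and 14.6 ± 3.82 FPKM in WT, a ratio of 4.78. In bulk RNA, a larger share of cells with a transcript and more of it per cell cannot be told apart. The alpha genes together had only 0.11, 0.05 and 0.16 FPKM in Max-KO, against 0.33, 0.27 and 0.25 FPKM in WT. The beta genes had 0.62, 0.47 and 0.43 FPKM in Max-KO, against 0.48, 0.33 and 0.31 FPKM in WT. These sums stood for an estimated 5.37 to 23.3 fragments per Max-KO library and 29.8 to 42.1 fragments per WT library for all alpha genes. The beta genes had an estimated 43.5 to 52.8 fragments in Max-KO and 28.9 to 53.5 fragments in WT. Both families were therefore near the limit of detection at this depth, and the plot of summed levels shows them on scales of their own.

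The single genes carried the widest spread between the groups. Their levels come from transcripts that share no run of 100 bases with another gene, so reads of 1 single protocadherin are not split with another member. Pcdh15 (ENSMUSG00000052613; GRCm38 chromosome 10, 73099342 to 74649737, plus strand) encodes the lower strand of the hair cell tip link, which pulls on the channels that sense sound. It was the highest protocadherin in Max-KO, with 41.9, 41.5 and 35.8 FPKM in libraries 1 to 3, against 5.03, 3.45 and 0.81 FPKM in WT libraries 1 to 3. Every Max-KO library stood far above every WT library, and WT library 3 was below the other 2. The means were 39.7 ± 3.41 FPKM in Max-KO and 3.10 ± 2.13 FPKM in WT, with a log2 difference of 3.48 ± 0.44 (SE). Without WT library 3 the difference was 2.97.

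Pcdh9 (ENSMUSG00000055421; chromosome 14, 93013410 to 93890679, minus strand), a neuronal adhesion molecule, followed with 22.0, 26.8 and 19.7 FPKM in Max-KO, against 3.07, 3.19 and 2.02 FPKM in WT. The Max-KO libraries again lay apart from the WT libraries, and the log2 difference was 2.67 ± 0.16 (SE). Pcdh15 and Pcdh9 together made up most of the single protocadherin sum in Max-KO, with 57.0 ± 2.54% and 32.6 ± 2.39%. In WT their shares were 19.6 ± 11.3% and 19.0 ± 0.67%. When Pcdh15 was left out, the ratio of the summed levels of the single genes was 2.61 in place of 4.78. That sum still contained Pcdh9, with means of 22.8 FPKM in Max-KO and 2.76 FPKM in WT. The ratio of 2.61 therefore does not describe the remaining single genes.

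Pcdh11x (ENSMUSG00000034755; X chromosome, 120290259 to 120910619, plus strand), an X-linked protocadherin of the developing brain, went the opposite way. Its levels were 2.18, 2.97 and 3.31 FPKM in Max-KO, against 6.33, 8.43 and 5.08 FPKM in WT, without overlap. The log2 difference was -0.98 ± 0.19 (SE). Pcdh11x held 45.9 ± 6.39% of the single sum in WT and was the leading single gene there, whereas it held 4.09 ± 1.07% of that sum in Max-KO. Pcdh19 (ENSMUSG00000051323; X chromosome, 133582860 to 133688987, minus strand), which acts together with N-cadherin in neural tissue, had 1.20, 1.63 and 1.25 FPKM in Max-KO, against 0.30, 0.46 and 0.37 FPKM in WT. Its groups did not overlap either, and the log2 difference was 0.77 ± 0.13 (SE). Both genes are on the X chromosome, where 55.9% of the 565 tested genes were called higher and 17.2% lower in Max-KO. On the Y chromosome, the protein-coding genes summed to 83.6, 95.4 and 87.6 FPKM in Max-KO, against 25.1, 25.4 and 23.6 FPKM in WT, and the part of these shifts in the X-linked members was not tested.

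Pcdh1 (ENSMUSG00000051375; chromosome 18, 38185914 to 38212053, minus strand), which is expressed in epithelia and outside the nervous system, lies on the same chromosome as the cluster but outside it. It had 2.47, 2.51 and 2.96 FPKM in Max-KO, against 1.47, 1.41 and 1.60 FPKM in WT, with a log2 difference of 0.55 ± 0.11 (SE). This was the narrowest gap among the 5 single genes that passed the filter, and the groups still did not overlap. The other 7 single genes, Pcdh7, Pcdh8, Pcdh10, Pcdh12, Pcdh17, Pcdh18 and Pcdh20, stayed at or under 0.17 FPKM in every library, and their groups overlapped. The order of the single genes by mean level was Pcdh15, Pcdh9, Pcdh11x, Pcdh1 and Pcdh19 in Max-KO, and Pcdh11x, Pcdh15, Pcdh9, Pcdh1 and Pcdh19 in WT. In Max-KO, Pcdh11x and Pcdh1 overlapped in their values, and in WT so did Pcdh15 with Pcdh9 and with Pcdh1.

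**Figure D2:**
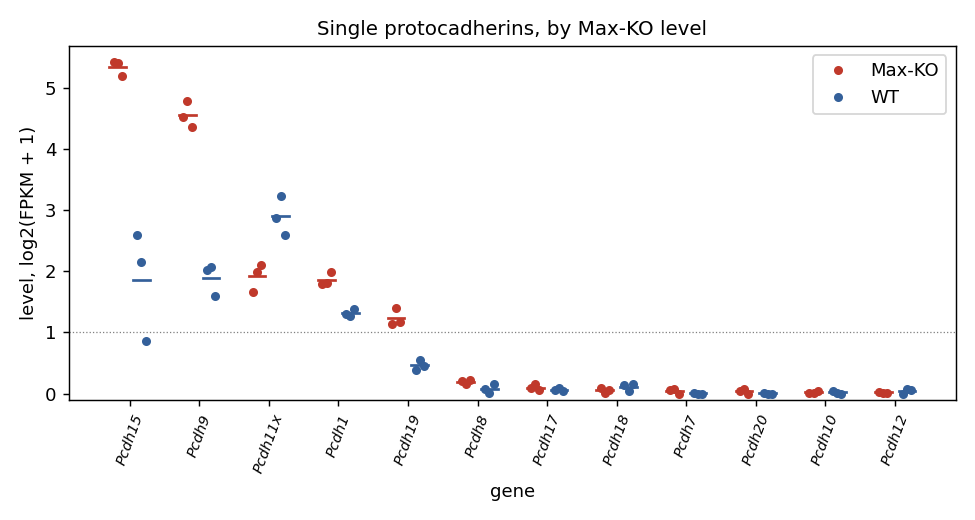
Levels of the 12 single protocadherins as log2(FPKM + 1) (y axis), ordered along the x axis by their Max-KO mean, with Max-KO libraries left and WT libraries right at each gene. Points are libraries, short lines are means of 3, and the dotted line marks 1 FPKM. Pcdh15 and Pcdh9 stand far apart between the groups, Pcdh11x is lower in Max-KO, and 7 genes lie at the bottom in both groups.

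The start regions of Pcdh15, Pcdh9 and Pcdh19 are shown because these 3 single genes were higher in Max-KO and RefSeq promoter windows of GRCm38.p6 were matched to them. A window runs from 250 bases before to 50 bases after the annotated start, on the strand of the gene. Capitals mark the E2F-type motif and every other letter is in lower case. The windows lie at chr10:73821617-73821916 (plus strand) for Pcdh15, chr14:93890620-93890919 (minus strand) for Pcdh9 and chrX:133688944-133689243 (minus strand) for Pcdh19.
Pcdh15: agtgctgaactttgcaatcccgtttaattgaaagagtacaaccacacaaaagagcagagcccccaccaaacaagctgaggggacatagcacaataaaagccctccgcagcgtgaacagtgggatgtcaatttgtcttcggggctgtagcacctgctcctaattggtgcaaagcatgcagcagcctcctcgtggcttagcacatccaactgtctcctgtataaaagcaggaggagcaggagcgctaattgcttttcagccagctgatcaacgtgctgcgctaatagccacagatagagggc
Pcdh9: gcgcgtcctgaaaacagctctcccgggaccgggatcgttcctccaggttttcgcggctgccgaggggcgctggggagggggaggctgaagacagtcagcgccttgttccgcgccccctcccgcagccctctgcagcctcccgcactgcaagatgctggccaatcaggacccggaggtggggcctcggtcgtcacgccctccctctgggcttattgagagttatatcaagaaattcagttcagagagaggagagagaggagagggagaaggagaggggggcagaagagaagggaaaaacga
Pcdh19: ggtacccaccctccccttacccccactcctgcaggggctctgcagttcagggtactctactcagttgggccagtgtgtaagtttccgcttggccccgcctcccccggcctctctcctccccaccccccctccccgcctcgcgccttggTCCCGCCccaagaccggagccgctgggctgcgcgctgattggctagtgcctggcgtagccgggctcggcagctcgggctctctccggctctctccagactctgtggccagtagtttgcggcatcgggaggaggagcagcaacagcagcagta
The motif search covered 10 windows, for 9 of the 69 members, all of them single genes. Pcdh9 was counted more than once, through overlapping windows. No window from the chromosome that carries the cluster was included, which left out every clustered gene, Pcdh1 and Pcdh12. Pcdh11x had no window in the search either. The motif counts therefore say nothing about these 60 members, and do not show that promoter windows were lacking for them. The E-box CACGTG, which MYC and MAX dimers bind, was in 0 of the 10 windows, beside 7.15% of 32851 promoter windows of all genes. The T-box element AGGTGT or its complement ACACCT, to which the T-box domain of the MAX partner MGA is related, was also in 0 of 10 (13.7% of all windows). The E2F-type motif GGCGGGA or its complement TCCCGCC, a kind that E2F6 of PRC1.6 binds, was in 2 of 10 (11.3% of all windows), those of Pcdh19 and Pcdh18. In Pcdh19 it begins at position -102, where 0 is the start. Both strands were searched, and none of these motifs is contained in another. The Pcdh19 window contained 18 CpG pairs and 67.7% G and C, the Pcdh9 window 19 pairs and 62.3%, and the Pcdh15 window 8 pairs and 50.7%, with a median of 52.7% over all windows. The RefSeq start of Pcdh15 lies inside the GENCODE gene, whose own start is at 73099342, and a level per gene does not show which start was used.

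The gamma genes were the only clustered members above the filter. Their array covers 37661793 to 37841873 on chromosome 18 of GRCm38 (plus strand), the last part of a cluster that spans 36930184 to 37841873. Each gamma gene ends at the same constant exons, so a read from these exons does not tell the genes apart. Between 17.4% and 64.0% of the 100-base windows of a gamma transcript (median 44.1%) were also found in a transcript of another gene. The level of a single gamma gene therefore depends on how such reads were divided, whereas the sum over the array depends on it less. The labels and processing notes do not say how such reads were divided.

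Pcdhga6 (ENSMUSG00000103793; 37707039 to 37841873), an A-type gene, had the highest mean of the gamma members in both groups, although in WT its levels overlapped those of Pcdhgc3. Its levels were 23.0, 16.9 and 21.7 FPKM in Max-KO, against 7.15, 8.89 and 8.54 FPKM in WT, with a log2 difference of 1.22 ± 0.13 (SE). The A-type and B-type genes are those that neurons are known to choose at random, and Pcdhga6 alone made up 34.6 ± 4.63% of the gamma sum in Max-KO and 31.5 ± 1.60% in WT. Pcdhga1 (ENSMUSG00000103144; 37661793 to 37841873), the first gene of the array, had the highest ratio among gamma genes. It had 3.56, 4.05 and 3.43 FPKM in Max-KO, against 0.86, 0.79 and 0.51 FPKM in WT, a ratio of 5.11 and a log2 difference of 1.45 ± 0.13 (SE). It held 6.24 ± 0.76% of the gamma sum in Max-KO and 2.82 ± 0.91% in WT, with no overlap between the groups.

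At the other end of the A-type genes, Pcdhga12 (ENSMUSG00000102428) had 3.44, 3.31 and 3.23 FPKM in Max-KO, against 1.39, 1.33 and 1.33 FPKM in WT, a log2 difference of 0.88 ± 0.10 (SE). Its means were 3.33 ± 0.11 FPKM in Max-KO and 1.35 ± 0.03 FPKM in WT (SD, n = 3 each). Pcdhga11 (ENSMUSG00000102742) had 2.40, 2.35 and 1.81 FPKM in Max-KO, against 0.82, 1.20 and 1.14 FPKM in WT. Pcdhga10 (ENSMUSG00000102222) had 1.16, 0.94 and 0.99 FPKM in Max-KO, against 0.57, 0.37 and 0.42 FPKM in WT. Both were separate between the groups, with log2 differences of 0.63 ± 0.14 and 0.48 ± 0.13 (SE), and the value of Pcdhga10 was -0.18 under quantile normalization. Among the B-type genes only Pcdhgb7 passed the filter, with 1.96, 1.92 and 1.67 FPKM in Max-KO, against 0.68, 0.56 and 0.47 FPKM in WT.

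The C-type genes stand at the end of the array, and in neurons they are known to be expressed without random choice. PCDHGC4 is known to be needed for the survival of interneurons. Pcdhgc3 (ENSMUSG00000102918; 37806364 to 37841873), which is broadly expressed and modulates Wnt signalling, had 14.9, 13.7 and 12.3 FPKM in Max-KO, against 6.32, 7.90 and 8.94 FPKM in WT. Pcdhgc4 (ENSMUSG00000023036; 37815079 to 37841873) had 5.08, 5.90 and 4.05 FPKM in Max-KO, against 2.95, 3.13 and 3.95 FPKM in WT. The lowest Max-KO library of Pcdhgc4 lay just above the highest WT library, and its ratio of 1.5 was the lowest of all gamma genes. Pcdhgc5 (ENSMUSG00000102543; 37819513 to 37841873) had 1.47, 2.1 and 0.89 FPKM in Max-KO, against 0.56, 0.25 and 0.20 FPKM in WT. The log2 differences were 0.75 ± 0.13 for Pcdhgc3, 0.46 ± 0.15 for Pcdhgc4 and 0.88 ± 0.21 for Pcdhgc5 (SE). The matching C-type genes of the alpha array stayed near 0. Pcdhac2 had 0.04, 0.02 and 0.07 FPKM in Max-KO, against 0.10, 0.06 and 0.08 FPKM in WT, while Pcdhac1 was listed at 0 in 5 libraries and at 0.06 FPKM in WT library 2.

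By type, the 12 A-type genes summed to 34.8 ± 3.13 FPKM in Max-KO and 13.2 ± 0.90 FPKM in WT, a ratio of 2.63. The 6 B-type genes summed to 4.27 ± 0.24 FPKM in Max-KO and 1.36 ± 0.20 FPKM in WT, a ratio of 3.13. The 3 C-type genes summed to 20.1 ± 2.49 FPKM in Max-KO and 11.4 ± 1.63 FPKM in WT, a ratio of 1.77. In none of the 3 types did the sums of the groups overlap. Pcdhgc3 held 23.0 ± 1.12% of the gamma sum in Max-KO and 29.6 ± 2.71% in WT, and Pcdhgc4 held 8.48 ± 1.64% in Max-KO and 12.8 ± 1.29% in WT. The make-up of the array was otherwise alike in its order: Spearman's rho between the mean Max-KO and the mean WT levels was 0.923 across the 21 gamma genes, which share libraries, constant exons and reads.

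All 21 gamma genes had a higher mean in Max-KO than in WT as deposited, after rescaling to TPM and under median-ratio scaling, whereas under quantile normalization Pcdhga10 was lower. In 18 of them the groups did not overlap, where 39.5% of protein-coding genes seen and 46.3% of genes tested were higher without overlap, and the exceptions were Pcdhgb1, Pcdhga8 and Pcdhga9. The ratios ran between 1.5 and 5.11 with a median of 2.51. Among genes under 1 FPKM, Pcdhga2 had 0.80, 1.08 and 0.86 FPKM in Max-KO, against 0.28, 0.22 and 0.13 FPKM in WT. The order of the genes along the array and their ratios had a Spearman's rho of -0.418 across the 21 genes. This is a description without a test, since neighbouring genes share exons and reads.

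**Figure D3:**
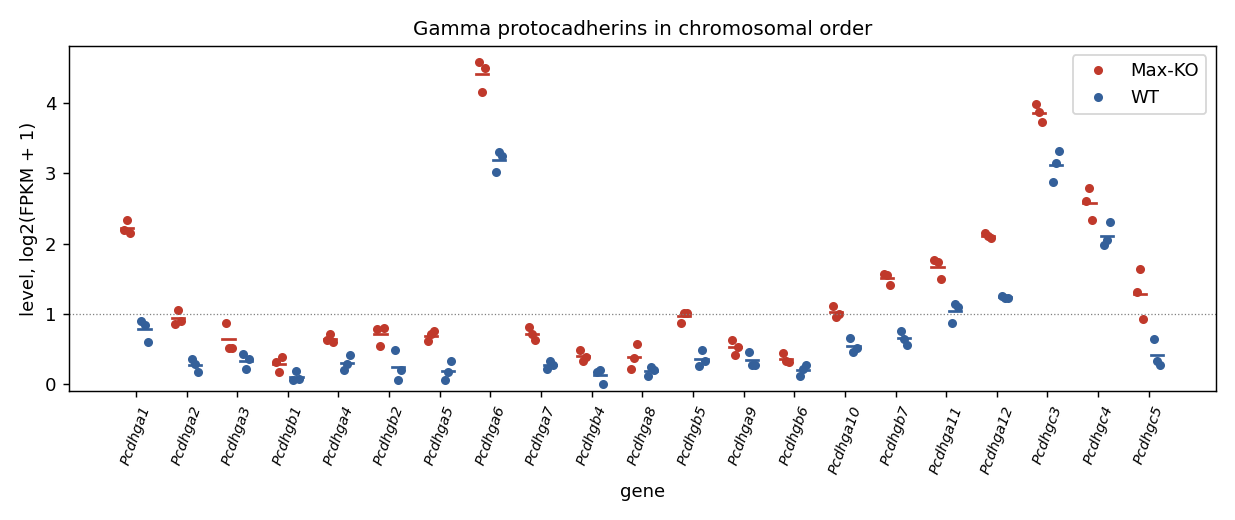
Levels of the 21 gamma protocadherins as log2(FPKM + 1) (y axis) in their order on the chromosome (x axis), with Max-KO libraries left and WT libraries right at each gene. Points are libraries, short lines are means of 3 and the dotted line marks 1 FPKM. Pcdhga6 and Pcdhgc3 are the highest in both groups, and each mean of the deposited values is higher in Max-KO, although Pcdhga10 was lower under quantile normalization.

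In the beta array, which lies between alpha and gamma (37264938 to 37524479), no gene exceeded 0.29 FPKM in any library. Beta transcripts shared at most 7.73% of their 100-base windows with another gene (median 0.21%), so few of their reads had to be divided between genes. The value of 0.29 FPKM belonged to Pcdhb2, in Max-KO library 1, and Pcdhb2 was listed at 0 in Max-KO libraries 2 and 3 and at 0.08, 0.07 and 0.08 FPKM in WT. Pcdhb1, the first beta gene, had 0.05, 0.08 and 0.17 FPKM in Max-KO and was listed at 0 in WT. Pcdhb22, the last, had 0.06, 0.09 and 0.03 FPKM in Max-KO, against 0.09, 0.04 and 0.06 FPKM in WT. Besides Pcdhb1, the groups did not overlap for Pcdhb7 and Pcdhb14, which were higher in Max-KO, and Pcdhb17, which was lower. Of the 22 beta genes, 3 were thus higher and 1 lower without overlap, beside 39.5% and 20.8% of protein-coding genes seen. Pcdhb7 had only 0.02, 0.03 and 0.04 FPKM in Max-KO, against 0.01, 0 and 0 FPKM in WT. Pcdhb17 had 0, 0 and 0.01 FPKM in Max-KO, against 0.16, 0.04 and 0.09 FPKM in WT.

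The 14 alpha genes occupy the first part of the cluster (36930184 to 37187661) and include 2 identifiers that share the symbol Pcdha11. No alpha gene exceeded 0.10 FPKM in any library, and the groups overlapped for all 14. Pcdha4, which shares 96.5% of its windows with other genes, was listed at 0 in all Max-KO libraries and at 0.07, 0.09 and 0 FPKM in WT. Pcdha3 had 0.02, 0 and 0.06 FPKM in Max-KO, against 0.06, 0 and 0.04 FPKM in WT. A count of 0 or a few fragments does not show that a gene was off, only that it was not detectable at this depth.

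Genes around the cluster were called in both directions. Of 32 other protein-coding genes inside the cluster or within 500 kb of its ends, 25 were tested, and 11 rose, 6 fell and 8 were not called (limma), with a median log2 difference of 0.14 beside 0.21 over all genes, of which 43.0% were called higher and 23.2% lower. Taf7, a TFIID subunit encoded between the beta and gamma arrays, rose to 63.1, 63.5 and 57.5 FPKM in Max-KO, against 43.2, 43.3 and 34.2 FPKM in WT (log2 difference 0.61 ± 0.10 SE, limma adjusted p = 0.00153). Diaph1, an actin nucleating formin whose gene lies 1.73 kb beyond the end of the cluster, had 57.3, 57.5 and 55.7 FPKM in Max-KO, against 55.9, 55.4 and 57.7 FPKM in WT. Its groups overlapped and its log2 difference of 0.01 ± 0.05 (SE) was not called (limma adjusted p = 0.815). Taf7 and Diaph1 were picked for their position after their values were seen. Further out, Eif4ebp3, a translation inhibitor, had 2.19, 2.68 and 2.46 FPKM in Max-KO, against 0.99 FPKM in WT library 1 and a listed 0 in the other WT libraries. It passed the filter only through Max-KO, and overlaps a neighbouring gene. Ankhd1 rose to 55.2 ± 2.51 FPKM in Max-KO, against 32.7 ± 2.46 FPKM in WT (0.74 ± 0.07, limma adjusted p = 1.21e-04), and Dnd1, an RNA-binding protein of germ cells, to 20.4 ± 1.17 FPKM in Max-KO, against 12.2 ± 1.78 FPKM in WT (0.71 ± 0.11, limma adjusted p = 9.8e-04). Wdr55, in contrast, fell to 20.3 ± 1.21 FPKM in Max-KO, against 35.1 ± 2.20 FPKM in WT (-0.76 ± 0.07, limma adjusted p = 1.24e-04; SD, n = 3 each).

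**Figure D4:**
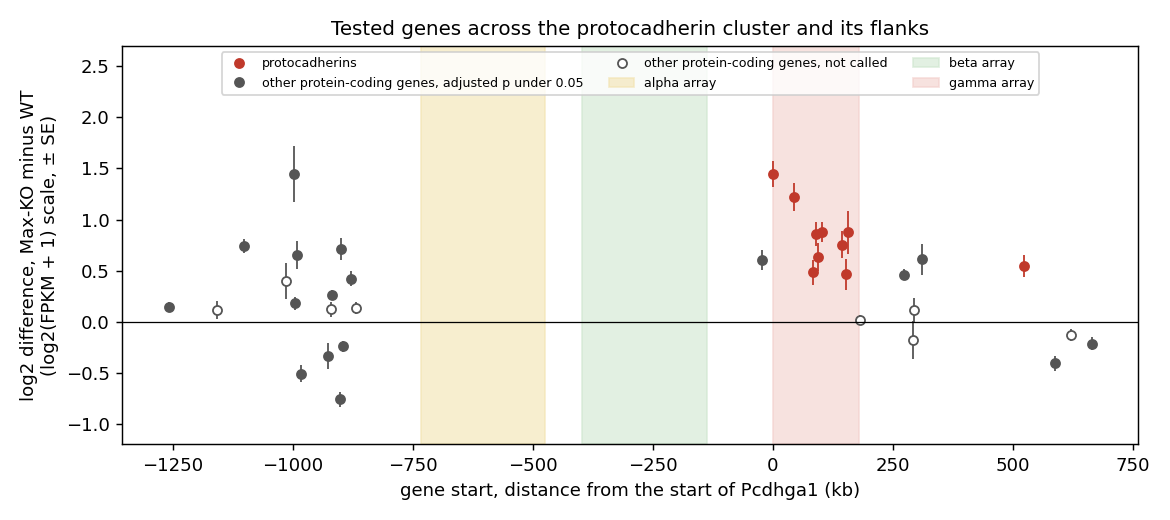
Log2 difference, Max-KO minus WT (y axis, log2(FPKM + 1) scale, error bars of 1 SE), of the tested genes on chromosome 18 by distance of the gene start from the start of Pcdhga1 in kb (x axis), with the alpha, beta and gamma arrays shaded. Gamma genes and Pcdh1 lie between 0.46 and 1.45 as deposited (Pcdhga10 was -0.18 under quantile normalization), the other protein-coding genes lie on both sides of 0, and no gene of the alpha and beta arrays passed the filter.

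A list of 28 genes linked to the control of the cluster was examined next, of which 27 were found and tested and Zfp274 was not matched. In it 12 genes rose, 5 fell and 10 were not called (limma), where 43.0% of all tested genes were called higher and 23.2% lower. The median log2 difference was 0.31 beside 0.21 over all genes. Nipbl, the loader of cohesin onto DNA, rose to 36.0, 36.7 and 31.1 FPKM in Max-KO, against 14.3, 17.8 and 7.52 FPKM in WT (log2 difference 1.40 ± 0.29 SE, limma adjusted p = 0.00545). WT library 3 was again the lowest, as it was for Pcdh15. Among the listed regulators it was also the lowest WT library for Smc1a, Smc3, Wapl and Tet1, none of them called. The same held for called regulators, among them Ctcf, Rad21, Stag1, Stag2, Lrif1 and Tet2. For Dnmt3l and Trim28 it was the highest WT library, and these examples were named after their values were seen. The cohesin subunits Rad21, Stag1 and Stag2 rose, with log2 differences of 0.80, 0.97 and 0.50, while Smc1a and Smc3 were not called (0.09 and 0.39). These subunits were named after their values were seen. The rise of Stag2 was not called under quantile normalization (adjusted p = 0.0574). Ctcf, whose protein marks the ends of chromatin loops in the cluster, rose to 71.6, 72.7 and 71.6 FPKM in Max-KO, against 57.2, 58.9 and 56.0 FPKM in WT (0.32 ± 0.05, limma adjusted p = 8.70e-04). Under median-ratio scaling its difference was 0.13 and was not called (adjusted p = 0.0530).

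Of the DNA methylation enzymes, Dnmt3b, a de novo methyltransferase known to methylate clustered protocadherin promoters in the mouse embryo, fell to 42.0, 44.7 and 32.6 FPKM in Max-KO, against 84.3, 86.2 and 86.1 FPKM in WT (-1.10 ± 0.11, limma adjusted p = 1.55e-04). Its catalytically inactive partner Dnmt3l rose to 837 ± 35.6 FPKM in Max-KO, against 407 ± 27.1 FPKM in WT (1.04 ± 0.07, limma adjusted p = 2.01e-05). Tet2, which oxidises methylated cytosine, rose to 43.0 ± 2.74 FPKM in Max-KO, against 21.1 ± 4.31 FPKM in WT (1.01 ± 0.15, limma adjusted p = 7.80e-04; SD, n = 3 each). The other 4 that fell, named after their values were seen, were Ehmt2, Adnp, Rest and Uhrf1, with log2 differences of -0.73, -0.57, -0.30 and -0.24. Rest and Uhrf1 were not called after rescaling to TPM (adjusted p = 0.397 and 0.815). Smchd1 and Setdb1, repressors known to act on the cluster, were not called. Smchd1 had 22.1, 23.7 and 23.1 FPKM in Max-KO, against 28.9, 26.9 and 18.8 FPKM in WT (-0.09 ± 0.15, limma adjusted p = 0.620), and was called without WT library 3 (-0.27, adjusted p = 0.0116). Setdb1 had 37.4, 39.5 and 41.5 FPKM in Max-KO, against 39.1, 39.9 and 38.6 FPKM in WT (0.01 ± 0.06, limma adjusted p = 0.920). Setdb1 was called higher after rescaling to TPM (0.23, adjusted p = 0.00913) and lower under median-ratio scaling (-0.18, adjusted p = 0.0301).

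**Figure D5:**
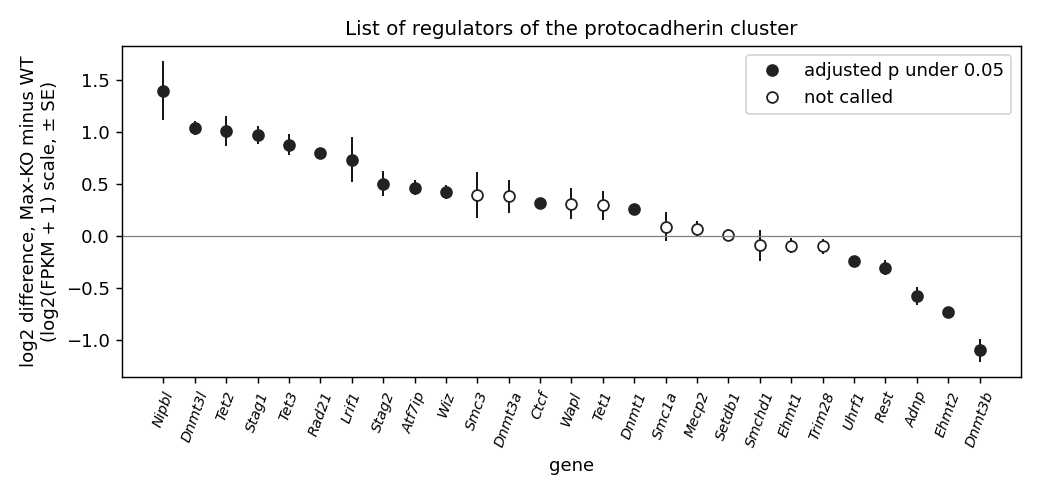
Log2 difference, Max-KO minus WT (y axis, log2(FPKM + 1) scale, error bars of 1 SE), of the 27 listed regulators of the protocadherin cluster, ordered along the x axis by their difference. Filled points passed limma's adjusted p under 0.05. Nipbl stands at the upper end (1.40) and Dnmt3b at the lower end (-1.10), and Smchd1 and Setdb1 lie near 0 with signs that depend on the scaling.

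Among 50 other genes of the cadherin superfamily 15 were tested and 34 never reached 1 FPKM. In this list 9 genes rose, 3 fell and 3 were not called (limma), where 43.0% of all tested genes were called higher and 23.2% lower. The median log2 difference was 0.30 beside 0.21 over all genes. Fat2, at 1.11 FPKM in Max-KO and 0.38 FPKM in WT on average, passed only through Max-KO, which fixed its direction. Under median-ratio scaling 5 of the listed genes were called higher, and Cdh1, Cdh24, Celsr1 and Clstn1 lost the call. Quantile normalization also left 5, but there Cdh24, Fat2, Celsr1 and Dsg2 lost it. Cdh23 encodes the upper strand of the tip link and binds PCDH15. It had 15.3, 6.33 and 19.3 FPKM in Max-KO, against 0.10, 4.08 and 0.23 FPKM in WT, with a log2 difference of 2.82 ± 0.72 (SE, limma adjusted p = 0.0164). The groups did not overlap, but Max-KO library 2 and WT library 2 lay near each other. The call was lost without WT library 1 (adjusted p = 0.0532), without WT library 3 (0.0562) and without Max-KO library 1 (0.0505). Cdh4, or R-cadherin, had 4.54, 24.8 and 5.54 FPKM in Max-KO, against 0.62, 0.37 and 0.57 FPKM in WT (2.69 ± 0.59, limma adjusted p = 0.00823). It passed the filter only through Max-KO, its Max-KO mean rested on library 2, and the log2 difference was 1.99 without that library. Cdh2, which encodes N-cadherin, fell to 1.22, 1.31 and 1.03 FPKM in Max-KO, against 3.20, 3.73 and 3.13 FPKM in WT (-0.99 ± 0.11, limma adjusted p = 2.74e-04). Cdh3, which encodes P-cadherin, was the third that fell (-0.72) and was named after its values were seen. Clstn3, a calsyntenin of synapses, fell to 13.4 ± 1.24 FPKM in Max-KO, against 29.1 ± 3.11 FPKM in WT (-1.06 ± 0.10, limma adjusted p = 1.14e-04; SD, n = 3 each). Cdh1, the E-cadherin of embryonic stem cells, was the most abundant cadherin named here, with 130 ± 2.28 FPKM in Max-KO and 111 ± 6.60 FPKM in WT. Its rise of 0.24 ± 0.06 (limma adjusted p = 0.00829) was not called under median-ratio scaling (0.04).

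All 24 genes listed as partners of protocadherins inside the cell or as enzymes that cut them were tested. Of these 15 rose, 4 fell and 5 were not called (limma), where 43.0% of all tested genes were called higher and 23.2% lower. The median log2 difference was 0.44 beside 0.21 over all genes. The kinases PTK2 and PTK2B are known to be inhibited by gamma protocadherins. Ptk2b rose to 41.0, 36.3 and 27.7 FPKM in Max-KO, against 8.52, 8.14 and 8.62 FPKM in WT (1.92 ± 0.14, limma adjusted p = 3.26e-05). Adam10, which sheds the extracellular part of gamma protocadherins, rose to 28.7, 27.6 and 29.4 FPKM in Max-KO, against 10.4, 9.88 and 8.92 FPKM in WT (1.47 ± 0.08, limma adjusted p = 8.93e-06). Both genes stood clear of overlap between the groups. Ncstn, a subunit of the gamma-secretase that makes the next cut, rose to 39.7 ± 0.29 FPKM in Max-KO, against 22.6 ± 0.11 FPKM in WT (SD, n = 3 each, 0.78 ± 0.05, limma adjusted p = 2.32e-05). Abi1, a subunit of the WAVE actin regulatory complex, rose to 37.6 ± 2.12 FPKM in Max-KO, against 21.8 ± 2.25 FPKM in WT (0.76 ± 0.09, limma adjusted p = 2.93e-04). Wasf3, a member of the WAVE family that links protocadherins to actin, fell to 8.49 ± 1.04 FPKM in Max-KO, against 14.7 ± 0.89 FPKM in WT (-0.73 ± 0.10, limma adjusted p = 6.68e-04). The other 3 that fell, Taok2, Psenen and Axin1, had log2 differences of -0.24, -0.20 and -0.19 and were named after their values were seen. None of these 3 was called after rescaling to TPM, where Psenen and Axin1 were at 0.03. Cyfip2 had the widest log2 difference of the list, -2.26 ± 0.87 (SE), but was not called (limma adjusted p = 0.0679). Its levels were 6.94, 47.4 and 66.9 FPKM in Max-KO, against 145, 194 and 99.1 FPKM in WT. Cyfip2 too was named after its values were seen.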

How the data were processed

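Libraries were made from total RNA, extracted with Trizol, with an Illumina TruSeq RNA kit, per the labels' protocols. No label says whether libraries kept strand, and reads of antisense or overlapping genes cannot be told apart. The values are FPKM as deposited by the authors, 1 per gene and library. Per the submitters' processing notes, FastQC, HISAT2 2.1.0, RSEM, DESeq 1.26.0 and the build GRCm38.p6 were used, with no role or order given here. The 56689 identifiers of a library comprised 55536 Ensembl genes and 1153 assembled loci, and the loci were left out of the fit. Of the Ensembl identifiers 55450 were found in GENCODE M21, which gave symbols, types and coordinates.

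The members and the gene lists were chosen with earlier results of these data known. Genes that averaged 1 FPKM or more in either group were taken as log2(FPKM + 1) and fitted over all genes in R 4.3.3 with limma 3.58.1 (2-sided, with genotype as the only factor and trend and robust moderation), with Benjamini-Hochberg adjustment over all 14661 genes tested. The fit was tried on simulated data in which few genes changed. This does not check it for data where 66.2% of genes were called. Every adjusted p in the text comes from such a fit. An exact permutation test of 3 against 3 libraries cannot go below p = 0.1 (2-sided), and none is given. Python 3.11.15 and pandas 2.3.3 were used for tables. Sums and ratios of means were taken on FPKM, and errors are SD over 3 libraries or SE of the fit.

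Depth was estimated from low values of genes with 1 transcript. FPKM times the transcript length less 250 bases fell within 0.15 of whole multiples of 1 step per library for 84.1% to 87.4% of the values. The steps were chosen to bring these values close to whole multiples, so the depths, and fragment numbers made from them, are estimates. Shared sequence is the percent of 100-base windows of the longest transcript that is also present in a transcript of another gene.

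Named genes were every single protocadherin that averaged 1 FPKM or more in a group, the gamma members with the 3 highest and 3 lowest differences, the 3 members of each array with the highest levels, the C-type genes, up to 4 called genes per list with the largest difference and 1 in the opposite direction, and Max, Ctcf, Smchd1, Dnmt3b, Setdb1, Cdh1 and Cdh2. Alternatives were a pseudocount of 0.1, no filter, a filter on the mean of all libraries, rescaling to TPM, median-ratio scaling, quantile normalization, limma without the trend, the replicate number as a block and leaving out each library in turn.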

Additional observations from a re-analysis of the deposited data

How the results depend on the processing

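Of the 13 named members that were tested, 178 alternative values were computed, and 1 changed sign, that of Pcdhga10 under quantile normalization (-0.18). The count of members called higher, 13 as reported, was 7 under quantile normalization and 12 to 13 when a library was left out. With no filter 15 gamma genes were called higher, against 9 with it, and 7431 of all genes, against 6300 with it. Genes admitted this way averaged under 1 FPKM in both groups, and nothing is read from these counts. The ratio of the gamma sums was 2.68 after rescaling to TPM, 1.99 under median-ratio scaling and 2.18 to 2.36 when a library was left out, beside 2.28. The ratio of the single sums was 2.61 without Pcdh15, where Pcdh9 was still in the sum, beside 4.78. It was 4.16 to 5.24 when a library was left out. Regulators called lower numbered 3 after rescaling to TPM and 8 under median-ratio scaling, beside 5. Other cadherins called higher numbered 5 with quantile normalization and 5 with median-ratio scaling, beside 9, and those called lower 5 with quantile normalization, beside 3. Partners called lower numbered 1 after rescaling to TPM, 2 with no filter, and 1 to 4 when a library was left out (1 without WT replicate 2 and 2 without Max-KO replicate 2), beside 4. Neighbours called lower numbered 3 after rescaling to TPM, beside 6. Max was called lower under median-ratio scaling (-0.362), and its sign changed after rescaling to TPM (0.0563). The sign also changed for Smchd1 after rescaling to TPM (0.135) and without WT replicate 1 (range -0.269 to 0.0268 over the libraries left out), and for Setdb1 under median-ratio scaling (-0.185), with quantile normalization (-0.0417), and without WT replicate 3 (-0.00305) or Max-KO replicate 3 (range -0.0286 to 0.0441). The cause of these shifts was not tested.

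The main fit did not pair libraries by replicate number. Deviations from the group means of same-numbered libraries correlated at -0.0006, 0.016 and 0.086 over the genes tested. Those of differently numbered libraries correlated at -0.082 to 0.065. With 3 libraries per group these values cannot show whether same-numbered libraries were paired. With the replicate number as a block, 12 members were called higher and 1 lower, and 6203 of all genes were called higher and 3282 lower. The call of Cdh23 was lost in that fit (adjusted p = 0.0686). Members under 1 FPKM were limited by depth, and gene-level values of alpha and gamma genes also by shared exons.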

Other observations

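Apart from the protein-coding members and Taf7, 5 other annotated genes inside the cluster passed the filter, and they were picked after their values were seen. 3222401L13Rik, a long non-coding RNA that ends just before Pcdhga1 (GRCm38 chromosome 18, 37655451 to 37661742, plus strand), had 3.33, 3.01 and 2.55 FPKM in Max-KO, against 0.49, 0.52 and 0.33 FPKM in WT, with a log2 difference of 1.45 ± 0.13 (SE, limma adjusted p = 8.02e-05). Gm26672, on the strand opposite to the gamma genes (37746559 to 37768242), had 1.69, 1.32 and 1.31 FPKM in Max-KO, against 0.44, 0.09 and 0.09 FPKM in WT (1.02 ± 0.16, limma adjusted p = 0.00114). Its span overlaps gamma genes, and reads of either strand cannot be told apart here. Pcdhgb8, annotated as a polymorphic pseudogene and therefore no member, had 1.27, 1.75 and 1.57 FPKM in Max-KO, against 0.16, 0.31 and 0.10 FPKM in WT (1.09 ± 0.14, limma adjusted p = 4.36e-04). These 3 genes and 4930517L18Rik were under the filter in WT, so their direction was given by the filter. 4930517L18Rik (37618906 to 37619766) had 2.57, 0.65 and 0.64 FPKM in Max-KO and was listed at 0 in WT (1.09 ± 0.30, limma adjusted p = 0.0158), with Max-KO library 1 well above the other 2. Gm38182 (37823879 to 37840382), which overlaps the end of the gamma array, had 2.30, 3.29 and 2.42 FPKM in Max-KO, against 1.93, 1.54 and 4.07 FPKM in WT. Its groups overlapped and it was not called (0.12 ± 0.26, limma adjusted p = 0.707).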
